A study of Mus musculus with 4 samples.

Results

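Polyamine metabolism is represented here by 10 genes of its core enzymes and their regulators: Odc1, Amd1, Srm and Sms for synthesis, Sat1, Paox and Smox for catabolism, and Oaz1, Oaz2 and Azin1 for the control of ornithine decarboxylase. They were found by exact match of the array's gene names, which gave 19 probes of 61307 and 10 genes of 50090. The cells are C3H10T1/2, a line of mouse embryo fibroblasts in which carcinogens raise foci of transformed cells that can be scored. For the 2 control arrays the cells grew for 6 weeks, and the labels name neither an agent nor a solvent for them. The 2 3MC+TPA arrays held RNA of cells given 2.5 µg/ml 3MC (3-methylcholanthrene, a polycyclic aromatic hydrocarbon that initiates tumours) for 2 days and, after 4 days in normal medium, 100 ng/ml TPA (a phorbol ester tumour promoter) in repeated doses over 2 weeks. A further 4 weeks of culture followed without either agent. The labels give 6 weeks of culture for this group too, while these steps add up to more than that, so equal time in culture is not certain. Flasks were divided between focus scoring and RNA, so an exposed sample may hold transformed foci together with the monolayer around them. In such bulk RNA, fewer cells of a type and less RNA per cell cannot be told apart.

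The polyamines putrescine, spermidine and spermine are small cations that bind nucleic acids and are needed for growth. Ornithine decarboxylase (Odc1) makes putrescine, S-adenosylmethionine decarboxylase (Amd1) supplies the aminopropyl donor, and spermidine synthase (Srm) and spermine synthase (Sms) add aminopropyl groups. Spermidine/spermine acetyltransferase (Sat1) and acetylpolyamine oxidase (Paox) run the path backwards, while spermine oxidase (Smox) converts spermine directly and releases hydrogen peroxide. Antizymes, whose translation needs a frameshift that polyamines promote, bind ornithine decarboxylase and send it to the proteasome, and antizyme inhibitor (Azin1), an inactive relative of the enzyme, takes antizyme away from it. Induction of ornithine decarboxylase is a long-known early response of skin to TPA. Much of this control acts on translation and protein turnover, which arrays do not read.

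All 10 genes were measured well above background on all 4 arrays. None passed the test of exposed against control cells after Benjamini-Hochberg adjustment over 24981 features (limma, threshold 0.05), where 15.8% of all features did. At an unadjusted p under 0.05 there were 4 of 10 (Odc1, Sms, Oaz2 and Azin1), beside 33.7% of all features. The t-test named in the study's methods gave 2 of 10 at an unadjusted p under 0.05 (Odc1 and Azin1), beside 22.9% of all features, and 0 of 10 after adjustment. None of the 10 changes reached 2-fold, a size that 13.7% of all features had. The median size of the change, up or down on the log2 scale, was 0.34 over the 10 genes and 0.33 over all features. Control and exposed arrays did not overlap for 9 of 10 genes, beside 63.7% of all features. Which of them pass depended on the processing: between 0 and 3 of the 10 were called over the alternatives, with Odc1, Oaz2, Azin1 and Paox the only ones ever called.

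**Figure D1:**
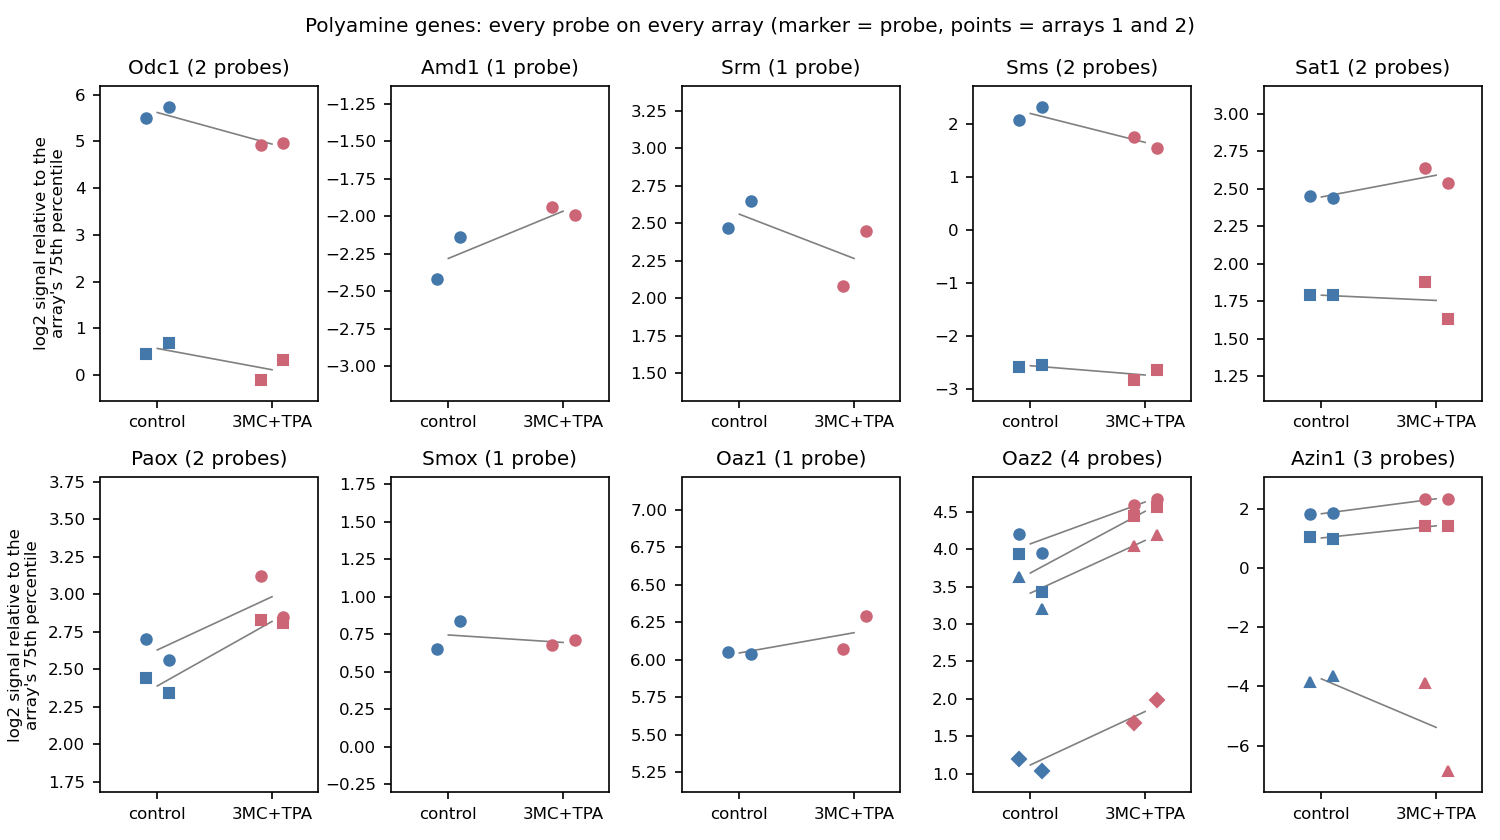
Signal of each probe in log2 units above or below its array's 75th percentile (vertical axis, a separate range in each panel) for the 10 genes on the 2 control arrays (blue) and the 2 3MC+TPA arrays (red). Each marker shape is 1 probe, the paired points are arrays 1 and 2, and grey lines join the group means. Both probes of Odc1 and of Sms lie lower in exposed cells, all 4 of Oaz2 and both of Paox lie higher, and Azin1 has 1 dim probe that falls to -6.87 on 3MC+TPA array 2.

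Among the enzymes of synthesis, Odc1, the first and rate-limiting one, had the largest log2 change. Its brightest probe read 5.50 on control array 1, 5.73 on control array 2, and 4.91 and 4.97 on the 3MC+TPA arrays (log2 signal minus that of the 75th percentile of the array, the scale of all levels below). Both exposed arrays were below both control arrays. The log2 change was -0.67 ± 0.16 (SE of the limma fit, 95% interval -1.09 to -0.26), which is 1.60-fold, and it did not pass (limma adjusted p = 0.054). Over the settings tried, the adjusted p ranged from 0.012 to 0.27 and the log2 change from -0.79 to -0.33. Odc1 passed under 4 limma settings (adjusted p = 0.020 with normexp background correction, 0.045 with median centring, 0.039 among features well above background on all 4 arrays, and 0.012 with a trended and robust variance). A second Odc1 probe, which shares no run longer than 5 bases with the first, stood at 0.46 and 0.68 on the control and -0.10 and 0.33 on the 3MC+TPA arrays. Its log2 change was -0.46 ± 0.21 (SE, limma adjusted p = 0.20 over all probes), so both probes gave a lower value in exposed cells and neither passed. With no longer run shared over their 60 bases, the Odc1 probes read different stretches of the transcript. The first 30 bases of each are given as the array lists them, 5′ to 3′.
Odc1 probe 1: attcacttttcagacattgatactaacgtg
Odc1 probe 2: gggttatctatgcaaatccttgtaaacaag

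Odc1 is tied to growth, and the control arrays differed in growth-linked RNA. Of 10 proliferation genes, all 10 were higher on control array 2 than on control array 1, with a median gap of 0.78 on the log2 scale. All 10 also had a lower mean on the exposed than on the control arrays, beside 12627 of 24981 features. The median log2 change was -0.66 for the 10 genes and -0.01 over all features. The level of the list, as a median over its genes, was 2.31 on control array 1, 3.34 on control array 2, and 2.40 and 2.47 on the 3MC+TPA arrays. Their part in the Odc1 result was not tested. Without control array 2 the log2 change of Odc1 was -0.56 (limma adjusted p = 0.19), and without control array 1 it was -0.79 (limma adjusted p = 0.092). In the same list 1 of 10 genes passed, the replicative helicase subunit Mcm4, which fell 2.49-fold (log2 change -1.32 ± 0.27, SE, limma adjusted p = 0.036) from 4.31 and 5.03 on the control arrays to 3.43 and 3.27. Mcm4 was still called without control array 1 and not without any other array.

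Amd1 is read by a dim probe. It stood at -2.42 and -2.14 on the control arrays and at -1.94 and -1.99 on the 3MC+TPA arrays, higher on both exposed arrays. Its log2 change was 0.32 ± 0.17 (SE, 95% interval -0.12 to 0.75, limma adjusted p = 0.26). The array's accession list gives this probe the transcripts of both Amd1 and Amd2, a close relative of the gene, and gives the brighter probe named for Amd2 the transcripts of both as well. The Amd2 probe stood at 4.38 and 4.34 on the control and 4.62 and 4.66 on the 3MC+TPA arrays, a log2 change of 0.28 ± 0.15 (SE, limma adjusted p = 0.25). Both probes thus gave values a little higher in exposed cells, and neither passed. Both 95% intervals reached both sides of 0 (-0.10 to 0.66 for the Amd2 probe). Which of these genes the signal comes from cannot be told from the probes. The first 30 of their 60 bases are given because the names alone do not separate them, and over their whole length they share no run longer than 4 bases.
Amd1 probe: cttctgtggaagataaatgacaaaactgaa
Amd2 probe: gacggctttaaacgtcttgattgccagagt

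The aminopropyl transferases were lower in value. Srm, which makes spermidine, stood at 2.47 and 2.65 on the control arrays and 2.08 and 2.45 on the 3MC+TPA arrays. The lower control array (2.47) and the higher exposed array (2.45) were close, and the log2 change of -0.29 ± 0.19 (SE, 95% interval -0.79 to 0.20, limma adjusted p = 0.35) was within the spread of the arrays, with a value of 0.06 when arrays were not scaled. Sms, which makes spermine, stood at 2.08 and 2.32 on the control and 1.76 and 1.55 on the 3MC+TPA arrays. Both exposed arrays were below both controls. The change was -0.54 ± 0.18 (SE, 95% interval -0.99 to -0.09) or 1.45-fold, with a limma adjusted p of 0.10, and it passed under none of the alternatives. A dimmer second Sms probe gave -2.57 and -2.54 on the control and -2.82 and -2.64 on the 3MC+TPA arrays, a smaller change of -0.17 ± 0.16 (SE, limma adjusted p = 0.50 over all probes).

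The catabolic genes had small differences, and none passed. Sat1, the acetyltransferase that starts the return path, stood at 2.45 and 2.44 on the control and 2.64 and 2.54 on the 3MC+TPA arrays by its brightest probe, a log2 change of 0.14 ± 0.15 (SE, 95% interval -0.24 to 0.53, limma adjusted p = 0.55). Its other probe stood at 1.79 and 1.79 against 1.88 and 1.63, with overlapping groups and a change of -0.03 ± 0.17 (SE). The probes of Sat1 therefore differ in sign, and the interval of either reaches both sides of 0. Smox stood at 0.65 and 0.84 on the control and 0.68 and 0.71 on the 3MC+TPA arrays. It was the 1 gene of the 10 with overlapping groups, at -0.05 ± 0.16 (SE, 95% interval -0.45 to 0.36, limma adjusted p = 0.87), and its sign turned without scaling (0.30) and without control array 2 (0.05). Paox, which oxidises acetylated polyamines in peroxisomes, was higher on both exposed arrays, at 3.12 and 2.85 against 2.70 and 2.56. Its change was 0.36 ± 0.17 (SE, 95% interval -0.09 to 0.81, limma adjusted p = 0.22). A second Paox probe gave 2.83 and 2.81 against 2.44 and 2.34, a change of 0.43 ± 0.15 (SE, limma adjusted p = 0.12 over all probes). Both Paox probes point upward and neither passed.

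The regulators of ornithine decarboxylase did not pass either. Oaz1, the widely expressed antizyme, stood at 6.05 and 6.04 on the control and 6.07 and 6.29 on the 3MC+TPA arrays. Its change of 0.13 ± 0.16 (SE, 95% interval -0.28 to 0.55, limma adjusted p = 0.61) rests mainly on 3MC+TPA array 2, without which it was 0.02. The Oaz1 probe is also listed against the pseudogene Oaz1-ps. Oaz2, a second antizyme of lower abundance in most tissues, stood at 4.20 and 3.95 on the control and 4.59 and 4.68 on the 3MC+TPA arrays. The change was 0.56 ± 0.17 (SE, 95% interval 0.13 to 0.99), or 1.48-fold, and did not pass (limma adjusted p = 0.087). All 4 Oaz2 probes were higher on both exposed arrays than on both control arrays, with changes of 0.56, 0.83, 0.70 and 0.71 from the brightest to the dimmest. Their adjusted p over all probes lay between 0.061 and 0.089. Oaz2 passed with normexp background correction (limma adjusted p = 0.034), with a trended and robust variance (0.033) and without scaling (0.020). The difference between the changes of Oaz1 and Oaz2 was not tested.

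The Oaz2 probes are not all independent readings. The second and the third overlap on the transcript by 17 bases, in capitals below: the end of probe 3 (bases 31 to 60 are shown) is the start of probe 2 (bases 1 to 30). Probe 2 read 3.94 and 3.43 on the control arrays and 4.45 and 4.57 on the 3MC+TPA arrays, and probe 3 read 3.63 and 3.20 against 4.05 and 4.19. Both were lower on control array 2 than on control array 1, by a wider gap than the other Oaz2 probes. The other probes share no run longer than 6 bases with them or with each other. Probe 4, which read 1.20 and 1.03 on the control and 1.68 and 1.98 on the 3MC+TPA arrays, is printed as the reading with the lowest p of this gene (limma adjusted p = 0.061 over all probes).
Oaz2 probe 3: ctgaccttgctttCTTTACAGCTTAGTGTT
Oaz2 probe 2: CTTTACAGCTTAGTGTTattctggcatttg
Oaz2 probe 4: ggattattagcactgctagagtttgctgag

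Azin1, which protects ornithine decarboxylase from antizyme, had replicates close to each other in both groups by its brightest probe. It stood at 1.83 and 1.85 on the control and 2.34 and 2.35 on the 3MC+TPA arrays. The change was 0.51 ± 0.15 (SE, 95% interval 0.13 to 0.88), or 1.42-fold, and limma, which shares the spread over all features, gave an adjusted p of 0.079. In the methods' t-test, which uses the spread of these 4 values alone, the adjusted p was 0.087 and the unadjusted p 0.00052. A second probe repeated the direction, at 1.43 and 1.43 against 1.04 and 1.00, a change of 0.41 ± 0.15 (SE, limma adjusted p = 0.13 over all probes). The third probe is dim and disagreed: it read -3.85 and -3.64 on the control arrays, -3.90 on 3MC+TPA array 1 and -6.87 on 3MC+TPA array 2, where it was not well above background. Averaging the 3 probes turned the sign of the gene to -0.24, which rests on that 1 spot. Azin1 passed with normexp background correction (limma adjusted p = 0.028), with a trended and robust variance (0.042) and without scaling (0.022).
Azin1 probe 1: acaggcattaacgcttccttagatctgaag
Azin1 probe 2: gatttgaatattgcccacttgaatatcatg
Azin1 probe 3: gtctgacaaatggttgaaatgacagaagtc

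**Figure D2:**
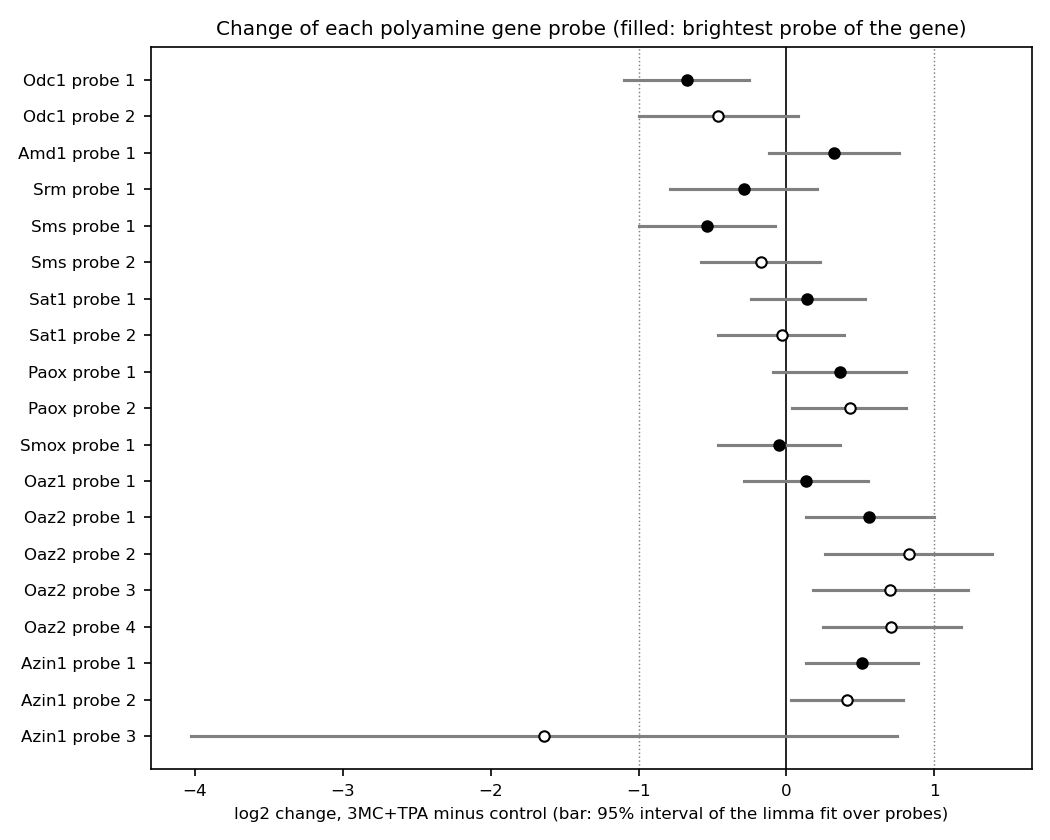
Log2 change (3MC+TPA minus control, horizontal axis) of each of the 19 probes, with the 95% interval of the limma fit over all probes as a bar; filled points are the brightest probe of a gene, and dotted lines mark 2-fold. The intervals of the 4 Oaz2 probes, of probes 1 and 2 of Azin1 and of probe 2 of Paox lie above 0, those of probe 1 of Odc1 and of Sms lie below 0, and none of the 19 passed after adjustment (15.5% of all probes did). An interval to 1 side of 0 means a limma unadjusted p under 0.05, which 33.7% of all features had by their brightest probe. Probes 2 and 3 of Oaz2 overlap by 17 bases.

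A p that misses the threshold does not show that a gene did not change. By brightest probes, the 95% interval of Odc1 reached past a 2-fold change, to a log2 change of -1.09, and those of the other 9 genes did not. By the other probes, Oaz2 reached past it as well, with upper limits of 1.39, 1.23 and 1.18 for probes 2, 3 and 4, and the dimmest Azin1 probe had an interval from -4.03 to 0.75. These intervals are not adjusted for the number of genes and hold the spread between arrays only. Probes of 1 gene differed in sign for Sat1 and, through its dimmest probe, for Azin1.

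**Figure D3:**
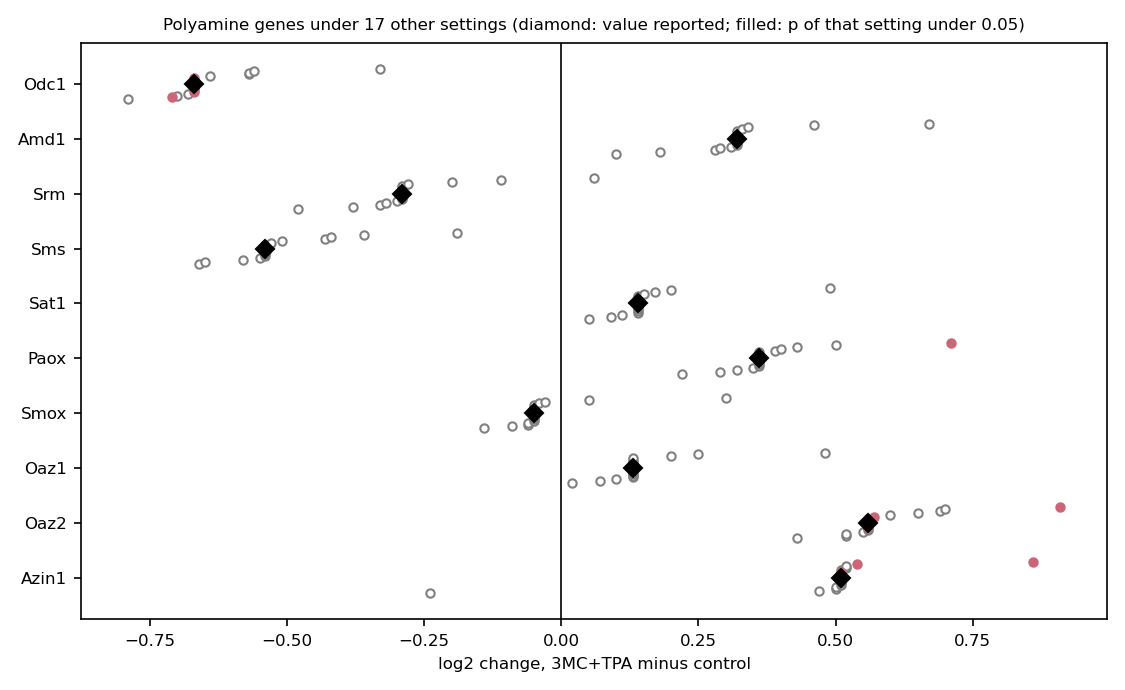
Log2 change (3MC+TPA minus control, horizontal axis) of the 10 genes as reported (diamonds) and under 17 other settings each (circles, filled where that setting's p was under 0.05). Odc1 and Sms stay below 0 and Oaz2, Paox, Amd1, Sat1 and Oaz1 above it in all settings, Srm and Smox cross it, and the 1 value of Azin1 below 0 is the mean over its 3 probes.

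Genes around the pathway were called at about the rate of all features. Of 89 such genes in 8 lists, 73 were tested, 6 rose and 7 fell (limma adjusted p under 0.05), beside 7.47% of all features that rose and 8.35% that fell. Among the 70 measured well above background on all 4 arrays, 6 rose and 6 fell. The direction of the calls depended on scaling, as it did over all features. Without it 14 of the 73 were called higher and 3 lower, beside 5319 higher and 1404 lower of 24981 features. The median log2 change was -0.10, against -0.01 over all features. The 13 calls include Aoc1, which entered the test through the control arrays alone and is counted below wherever a control array is left out. With 1 array left out, a group holds a single array, and fewer genes were called here as over all features (last section). A lost call, here or for any 1 gene, therefore does not show that the change rested on that array. The log2 changes kept their sign, for example 0.74 to 0.82 for Aldh18a1 and -1.68 to -0.96 for Mcm4. Of the 13, 6 were still called without control array 1, 2 without control array 2, and 1 each without 3MC+TPA array 1 or 2.

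In the supply of ornithine, 2 of 8 genes tested rose and none fell. Ass1, argininosuccinate synthase of arginine synthesis, stood at -0.02 and 0.02 on the control and 1.35 and 1.91 on the 3MC+TPA arrays, 3.09-fold higher (log2 change 1.63 ± 0.23, SE, limma adjusted p = 0.013). It was the gene still called without either 3MC+TPA array, and it was not called without either control array. Aldh18a1, which makes the precursor of proline and ornithine from glutamate, rose 1.72-fold from -0.22 and -0.14 to 0.61 and 0.60 (limma adjusted p = 0.028), and was not called without any 1 of the 4 arrays. The arginases Arg1 and Arg2, which release ornithine from arginine, were not well above background on any array. Oat, ornithine aminotransferase, stood at -0.41 ± 0.16 (SE) and did not pass (limma adjusted p = 0.14).

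In the supply of S-adenosylmethionine and the salvage of methylthioadenosine, the by-product of the aminopropyl transfers, 2 of 11 rose and 1 fell. Mat2a, the catalytic subunit of methionine adenosyltransferase, rose 1.79-fold, from 5.28 and 5.06 to 6.02 and 6.01. Mat2b, its regulatory subunit, rose 1.70-fold, from 2.97 and 2.88 to 3.73 and 3.65. Their limma adjusted p were 0.030 and 0.031, and the groups did not overlap for either. A second Mat2b probe gave 0.48 ± 0.18 (SE) and did not pass (limma adjusted p = 0.14 over all probes). Mtap, which cleaves methylthioadenosine, fell 1.63-fold, from 3.84 and 3.71 to 3.02 and 3.13 (limma adjusted p = 0.042). None of these 3 was called with any 1 array left out.

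Other catabolic genes gave 2 falls of 8, of which only that of Sat2 was measured in both groups. Sat2, a relative of Sat1 with another main substrate, stood at 1.01 and 1.12 on the control and 0.31 and 0.32 on the 3MC+TPA arrays, 1.68-fold lower (limma adjusted p = 0.033), and was not called with any 1 array left out. Aoc1 (Abp1 in the array's names), the secreted diamine oxidase that degrades putrescine and histamine, was dim in control cells, at -4.62 and -3.29, and not well above background on either exposed array. It entered the test through the control arrays alone, so its call (limma adjusted p = 0.014) sets measured values against values not well above background and supports nothing. The bound was at least 1.81-fold lower, and it rests on control array 2: it was 1.14-fold without that array and 2.86-fold without control array 1. For that bound, each exposed array counted at its dimmest signal still well above background, or at the probe's own signal where higher. Of the 4 genes of hypusine, the spermidine-derived residue of translation factor eIF5A, none passed, and none passed in the adjusted t-test. At a limma unadjusted p under 0.05 there were 2 of 4, beside 33.7% of all features. The largest values were those of the hypusine-forming enzyme Dhps, at 0.55 ± 0.17 (SE, limma adjusted p = 0.096), and of Eif5a2, also at 0.55 ± 0.17 (SE, limma adjusted p = 0.092).

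Transport genes gave 1 rise and 1 fall of 11. Slc7a5, the light chain of a large neutral amino acid transporter, rose 3.16-fold, from 1.36 and 0.54 to 2.32 and 2.91, and Slc7a2, a cationic amino acid transporter that takes up arginine and ornithine, fell 2.06-fold, from -1.62 and -1.18 to -2.46 and -2.42 (limma adjusted p = 0.036 and 0.030). Both were still called without control array 1, and neither without any other array. Slc3a2, the heavy chain partner of Slc7a5, is mentioned after its values were seen: its bright probe read 4.89 and 5.16 in the controls and 4.82 on 3MC+TPA array 1, but -3.77 on 3MC+TPA array 2. A second Slc3a2 probe read -0.97 and -0.23 on the 3MC+TPA arrays against -0.39 and -0.11, so the low spot was not repeated. Neither probe passed.

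Among regulators of Odc1 and Sat1, 1 of 12 rose and 1 fell. Pparg, a nuclear receptor reported to induce Sat1, fell 2.43-fold, from 3.33 and 3.57 to 2.24 and 2.09 (limma adjusted p = 0.011). Zfp36, which binds AU-rich RNA and promotes its decay, rose 1.63-fold, from 3.24 and 3.33 to 4.07 and 3.91 (limma adjusted p = 0.042), and its second probe rose too (limma adjusted p = 0.014 over all probes). Pparg was still called without control array 1 and not without any other array, and Zfp36 was not called with any 1 array left out. Myc, a transcription factor that activates Odc1, stood at 2.59 and 3.09 on the control and 2.16 and 1.54 on the 3MC+TPA arrays, lower on both exposed arrays. Its change of -0.99 ± 0.29 (SE) did not pass (limma adjusted p = 0.082), though it passed with normexp background correction (0.039) and with a trended and robust variance (0.035). Its 3 probes lay between -1.07 and -0.99. The E-box CACGTG, a sequence that Myc and its partner Max bind and which reads the same on both strands, was sought in the RefSeq promoters (GRCm38.p6, 250 bases before to 50 after a start). It was in 1 of 10 promoters listed for 8 of the polyamine genes, beside 7.15% of all promoters of that length, and Srm and Azin1 have no entry. Sites outside that window were not sought, so the search cannot tell whether a gene without a match is bound by Myc. The match, in capitals, lies 196 bases before 1 of the 2 starts of Sms, at chrX:157492466-157492495 on the minus strand.
Sms promoter: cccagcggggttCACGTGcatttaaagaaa

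Of 9 genes that bear on the turnover of ornithine decarboxylase, the 8 proteasome subunits did not pass, with changes from -0.23 to 0.33. Nqo1, a quinone reductase that also binds ornithine decarboxylase and shields it from the proteasome, fell 2.46-fold, from 3.68 and 3.83 to 2.46 and 2.45 (limma adjusted p = 0.0082). It was called without either control array and not without either 3MC+TPA array.

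**Figure D4:**
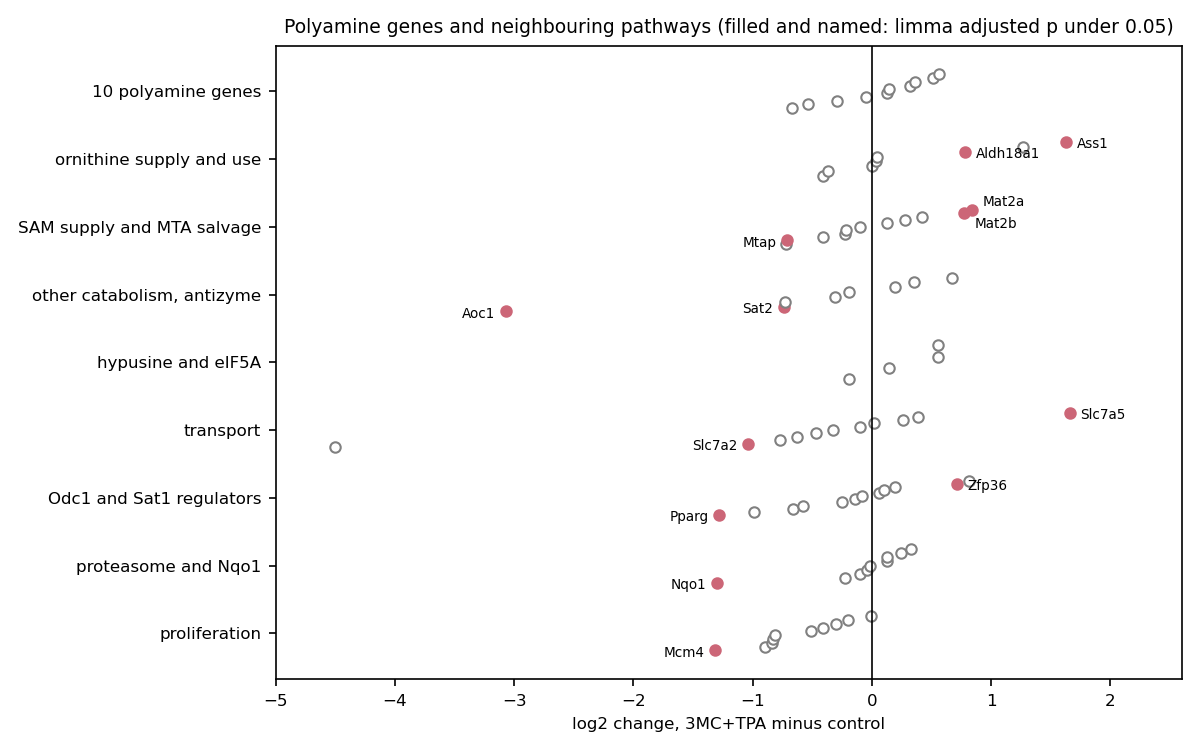
Log2 change (3MC+TPA minus control, horizontal axis) of the 10 polyamine genes and of the 73 tested genes of 8 neighbouring lists (1 point a gene); filled points passed at a limma adjusted p under 0.05. None of the 10 core genes is filled and 13 of the 73 others are; Aoc1 has only a bound on the exposed arrays, and the open point at -4.50 is Slc3a2 with its 1 low spot.

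Across the series, 32125 to 32512 spots of each array were well above background, and each array read 61657 spots. Of 10 fibroblast markers all 10 were well above background on all 4 arrays, but their levels were not all steady. By limma adjusted p under 0.05, 3 fell and 1 rose, beside 15.8% of all features called. Dcn fell 4.12-fold, Pdgfra 2.77-fold and Pdgfrb 2.03-fold. Thy1 rose 7.89-fold, from 2.97 and 0.85 on the control arrays to 4.77 and 5.02 on the 3MC+TPA arrays. Defining markers of leukocytes (Ptprc), endothelium (Pecam1, Cdh5) and epithelium (Cdh1) were not well above background on any array, and Epcam was on 3MC+TPA array 1 only. Of 4 endothelial markers, Tek alone was tested, and it entered the test through the exposed arrays alone. It read -3.95 and -3.90 on the 3MC+TPA arrays and was not well above background on either control array, which bounds it at least 1.77-fold higher. Tested markers numbered 4 of 7 for leukocytes, 3 of 6 for epithelium, 1 of 3 for muscle and 1 of 4 for fat cells, and none of these passed. Their part in the polyamine values was not tested. All 4 arrays lie on 1 slide, so position on it and group cannot be told apart. The labels leave it unsaid whether a group's arrays had separate cultures behind them. All errors and p-values given here therefore describe how far the arrays differed, and that spread may be technical.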

How the data were processed

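Per the file headers, the intensity values come from Agilent Feature Extraction 10.7.3.1, whose processed signal had spatial and multiplicative detrending and substitute values for dim spots. The authors deposited a log2 table, and the series' design text names GeneSpring GX 11.5. Comparison with the scanner files shows log2 processed signals scaled to the 75th percentile of each array, with no centring by gene: after offsets of 0.003 to 0.015, at least 61236 of 61307 probes were equal within 0.01. Its column medians are -4.29, -4.31, -4.39 and -4.35. The values used here are that quantity, recomputed with the percentile over non-control spots. The deposited columns served as an alternative.

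The 1319 control spots and the spots with outlier flags (20 to 68 an array) were left out, none was saturated, and spots of 1 probe were averaged. A gene is an array gene name read by its brightest probe, tested when that probe was well above background on both arrays of a group, which left 24981 of 50090. Groups were compared with limma 3.58.1 in R 4.3.3 (2-sided, no covariates), adjusted over all features at 0.05. The number of arrays limits the precision.

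The members and lists were chosen with earlier results of these data known. All members are named, and of each other list up to 3 called genes with the largest change, or else the largest, plus Myc. Genes named beyond this rule to complete a count, as partners or as a tie (Arg1, Arg2, Oat, Amd2, Eif5a2, Slc3a2 and the called fibroblast markers) were chosen after their values were seen. Probes have no coordinates here, because the array's build differs from that of the RefSeq tables (GRCm38.p6). No promoter is printed whole, since no member passed.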

Additional observations from a re-analysis of the deposited data

How the results depend on the processing

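Over the alternatives the count of called polyamine genes was 0 or rose to 3 with normexp background correction, 3 without scaling, 3 with a trended and robust variance, 2 in the methods' t-test unadjusted, and 1 each with median centring and among features well above background on all 4 arrays. It was 0 in the other settings, each array left out included. Of 170 values of the 10 genes, 153 kept direction and side of the threshold, 13 passed and 4 reversed: Srm (0.06) and Smox (0.30) without scaling, Smox without control array 2 (from -0.14 to 0.05 over the arrays left out) and Azin1 as a mean over its probes (-0.24). The cause was not tested, except that for Azin1 1 spot sets it. Without scaling the median of all features moves to 0.34, and 79.1% of called features are higher against 47.2%. Called pathway genes (13) became 20 with normexp, 1 without a filter, 0 in the adjusted and 20 in the unadjusted t-test, 7 with at least 2-fold, and 1 to 9 with an array left out. Called features (3952) became 6723 without scaling, 907 without a filter, 23 in the adjusted t-test, and 1425 to 2800 with an array left out. An arm with 1 array is assumed to vary like the other. With the replicate number as a block, 0 polyamine genes, 8 pathway genes (2 higher, 6 lower) and 3589 features were called. Nothing in the labels pairs the arrays, and the deviations of equal numbers correlated at 0.003 over 24919 features. The slide as a block was not run, as there is 1 slide.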
